A study of Homo sapiens with 4 samples.

Results

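Nicotine was given to A549 cells, a human lung adenocarcinoma cell line, after siRNA against β-arrestin-1 (ARRB1), and the RNA of these cells was compared with that of serum starved cells that had received the same siRNA. The comparison used 2 of the 4 arrays of the study, chosen by their labels, and the other pair was its counterpart in cells that received control siRNA. All 4 cultures were transfected, made quiescent by 36 h without serum, and either left untreated or stimulated with 1 µM nicotine for 24 h. Total RNA was read on 3′ oligonucleotide arrays, where each probe set gives 1 signal on a linear scale. Each of the 4 conditions was 1 array, so there is no replicate error, no test and no p value anywhere below. The labels name the siRNA target as beta arrestin, and the study's methods give it as β-arrestin-1.

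β-arrestins bind activated receptors and act as scaffolds that join the receptors to Src family kinases and other signalling proteins. Nicotinic acetylcholine receptors are ion channels opened by acetylcholine and by nicotine, and lung epithelial and lung cancer cells carry them. The study asked which nicotine responses depend on β-arrestin-1, and the ARRB1 siRNA pair shows what nicotine stimulated cells looked like with less of it.

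Where a gene had several probe sets, the one that was brightest on average over the 4 arrays stood for it, and the gene was called expressed if that average, a geometric mean, reached 66.3, the median over the probe sets of the array. There were 12521 expressed genes among 19775 genes with a probe set of their own. Every difference is log2 of the nicotine stimulated signal minus log2 of the serum starved signal. Since 2 arrays give no error, each difference was set against the SD of the differences of about 500 probe sets of nearly equal mean signal, called the local SD here. This spread mixes measurement noise with any real differences. The precision of every value is limited by there being 4 arrays in all.

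The ARRB1 transcript was lower where its siRNA had been given. The brightest ARRB1 probe set read 352 and 331 in the starved and nicotine stimulated control siRNA arrays, and 191 and 224 in the ARRB1 siRNA arrays. Of 7 ARRB1 probe sets, 6 were lower than in control siRNA cells in both states. The second brightest was not, with 224 and 180 after control siRNA and 233 and 194 after ARRB1 siRNA. Within the ARRB1 siRNA cells 5 of the 7 were higher with nicotine. Both counts include probe sets far below the expressed level, with 4.98 and 5.35, and 5.75 and 7.75, in ARRB1 siRNA cells. Of the 4 expressed probe sets beside the brightest, 2 were higher with nicotine as it was. The epithelial markers of A549 cells were bright in all 4 arrays, with 11 of 12 measured markers expressed and AKR1B10, an aldo-keto reductase, the brightest. Only 2 of 13 immune, 2 of 10 endothelial and 3 of 10 fibroblast markers reached the expressed level, and the summed signals of the immune list were between 698 and 762 on the 4 arrays. In bulk RNA such as this, fewer cells of a type and less RNA per cell cannot be told apart.

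Nicotine stimulated and serum starved ARRB1 siRNA cells differed little for most genes. Of the expressed genes, 93.1% lay within 1.5-fold, against 95.3% in the control siRNA pair. There were 62 genes at least 2-fold higher with nicotine (0.495% of the expressed genes) and 120 genes at least 2-fold lower (0.958%). Higher genes made up 34.1% of these, but 47.7% with array medians set equal and 43.1% with quantile normalization. In the control siRNA pair 0.719% of the same genes were at least 2-fold higher and 0.335% at least 2-fold lower.

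The 2-fold limit was reached mainly among dim genes. Between signals of 66 and 100 the median local SD was 0.58, and 8.82% of 975 genes passed 2-fold. Between 500 and 2000 the local SD was 0.27, and 2 of 4471 genes were at least 2-fold higher and 18 at least 2-fold lower. None of the 3297 genes at 2000 or more passed it. The dimmer of the ARRB1 siRNA arrays lay below that array's median for 40 of the 62 higher genes and for 71 of the 120 lower genes. Of the genes past 2-fold, 22 higher and 41 lower ones were also past 3 local SDs.

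**Figure D1:**
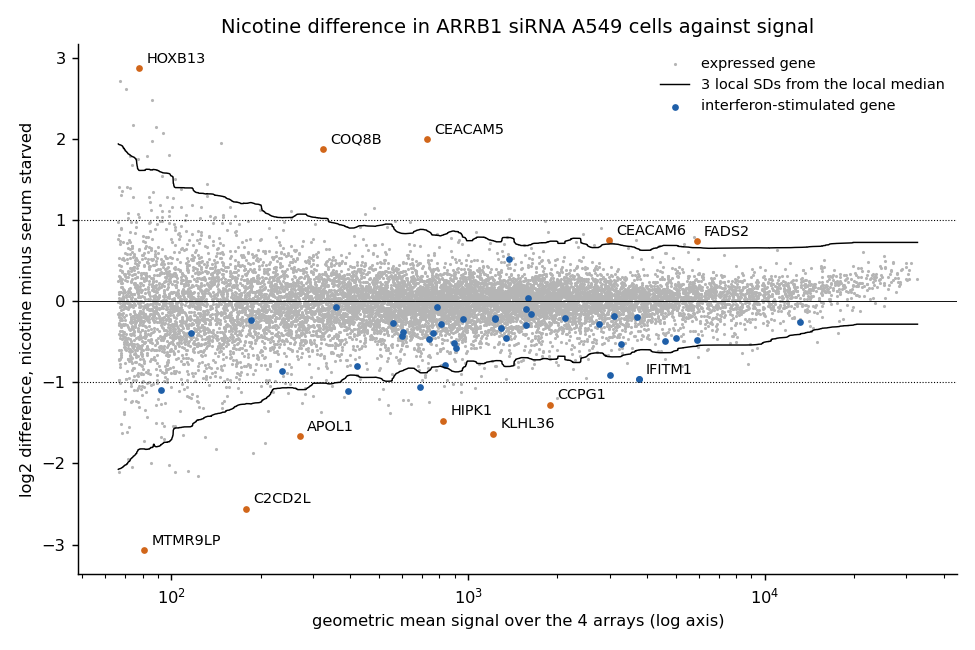
Each point is 1 of the 12521 expressed genes, with its geometric mean signal over the 4 arrays on a log axis and its log2 difference between nicotine stimulated and serum starved ARRB1 siRNA cells, 1 array each. Solid lines lie 3 local SDs from the local median, dotted lines mark 2-fold, blue points are the listed interferon-stimulated genes and orange points are other named genes. The spread narrows as the signal increases, and 37 of the 39 blue points lie below 0.

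The genes that respond to interferon had the lowest median of the 29 gene lists examined. The lists were chosen with earlier results of these data known, so this rank is not independent of them. Type I interferons act through their receptor to induce a set of antiviral genes, many of which carry the interferon-stimulated response element in front of their start; cells keep a basal level of these transcripts. Of 42 listed interferon-stimulated genes 39 were expressed, and 37 of them were lower in the nicotine stimulated ARRB1 siRNA array, where 51.9% of all expressed genes were lower. Their median difference was -0.38, with quartiles of -0.52 and -0.22, against -0.01 over all expressed genes. There were 3 genes at least 2-fold lower, 8 at least 1.5-fold lower (4.7% of all expressed genes) and none 1.5-fold higher (2.16% of all expressed genes). Against their local SDs, 12 of the 39 lay at least 2 local SDs below the local median (3.02% of all expressed genes), and none as far above it (1.44%).

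The largest difference over its local SD among them was that of IFITM1, a membrane protein that blocks entry of viruses. IFITM1 read 6911 and 6584 in the control siRNA arrays, 2926 in the starved ARRB1 siRNA array and 1499 in the nicotine stimulated one. Its difference was -0.96, which lay at -4.74 local SDs from the local median. IFIT1, which binds viral RNA that lacks the cell's own cap methylation, read 6694 and 8735 in control siRNA cells, then 1627 and 865 in ARRB1 siRNA cells, a difference of -0.91. For both genes the ARRB1 siRNA arrays lay below both control siRNA arrays, and the nicotine stimulated one was the lowest of the 4.

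IFI44L, an interferon-induced gene often used to score this response, read 1568 and 1692 after control siRNA and 421 and 203 after ARRB1 siRNA (-1.05). RSAD2, also called viperin, which makes a chain-terminating nucleotide, read 167, 177, 72.6 and 34.0 in the same order (-1.09), where the local SD of 0.55 was larger. CMPK2, a mitochondrial nucleotide kinase beside RSAD2, read 1968, 1899, 472 and 274 (-0.79). BST2, or tetherin, which holds budding virus at the membrane, read 397, 261, 232 and 128 (-0.86). In the control siRNA pair BST2 stood at -0.61, and was the only listed gene past 1.5-fold there.

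Other well known members differed less. MX1, a GTPase active against influenza virus, read 646 in the starved and 472 in the nicotine stimulated ARRB1 siRNA array (-0.45). ISG15, a ubiquitin-like modifier, read 3576 and 2614 (-0.45), and IFI6, the brightest gene of the list, 12502 and 10467 (-0.26). OAS1, which makes the signal that activates RNase L, read 2434 and 2004 (-0.28). Among the transcription factors of the pathway, IRF7 stood at -0.22, IRF9 at -0.16 and IRF1 at -0.07. The exceptions were RIGI, the cytosolic RNA sensor formerly called DDX58, at 0.04, and ISG20, an exonuclease, which read 1058 and 1517 (0.52). The other ISG20 probe set, also bright, read 1286 and 1380 (0.10), so a difference of that size was not repeated.

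The sequences in front of 4 of these genes are shown because they carry this response element. They are the 150 bases before the annotated start, from RefSeq on GRCh38.p14, plus strand, 5′ to 3′, and capitals mark each match to the element, searched as GAAA, any 2 bases and GAAA again on either strand. The motif was chosen after the differences were seen. IFIT1 lies on chr10:89392473-89392622, IFI44L on chr1:78620298-78620447, ISG15 on chr1:1013347-1013496 and ISG20 on chr15:88638866-88639015.
IFIT1: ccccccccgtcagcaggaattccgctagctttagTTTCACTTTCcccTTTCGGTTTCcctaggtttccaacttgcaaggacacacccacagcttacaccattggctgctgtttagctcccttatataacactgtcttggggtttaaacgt
IFI44L: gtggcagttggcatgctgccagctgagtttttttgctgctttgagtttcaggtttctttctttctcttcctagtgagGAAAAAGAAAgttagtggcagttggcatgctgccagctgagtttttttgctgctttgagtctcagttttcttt
ISG15: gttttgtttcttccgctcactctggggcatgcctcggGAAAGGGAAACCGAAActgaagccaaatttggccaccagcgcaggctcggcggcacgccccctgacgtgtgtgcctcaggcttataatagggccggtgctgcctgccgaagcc
ISG20: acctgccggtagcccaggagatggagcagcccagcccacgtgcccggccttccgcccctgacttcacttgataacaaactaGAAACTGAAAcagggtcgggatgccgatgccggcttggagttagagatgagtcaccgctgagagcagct

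IFIT1 held 2 matches set close together, ISG15 held 2 that overlap, and IFI44L and ISG20 held 1 each in the stretch shown. ISG20, the listed gene with the highest difference by its brightest probe set, was among the 4 genes picked because they carry the motif. RefSeq promoters of 300 bases, from 250 before to 50 after the start, were at hand for 33 of the 39 genes. The motif was in 22 of the 33 (66.7%), in 280 of 10193 promoters of expressed genes (2.75%) and in 996 of all 27305 promoters (3.65%). The 22 genes with the motif had a median difference of -0.42 and the 11 without it -0.28, and both groups ranged from at least 1.05 lower on the log2 scale to above 0. The motif was in 4 of 94 promoters of genes at least 2-fold lower (4.26%) and in 2 of 46 of those at least 2-fold higher (4.35%). In the 33 promoters the AP-1 motif TGANTCA was in 3 (9.09%, against 4.65% of expressed genes), and neither the cyclic AMP response element TGACGTCA nor the E2F motifs TTTCGCGC and TTTGGCGC was found. A match describes letters in this window and is not evidence of binding.

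**Figure D2:**
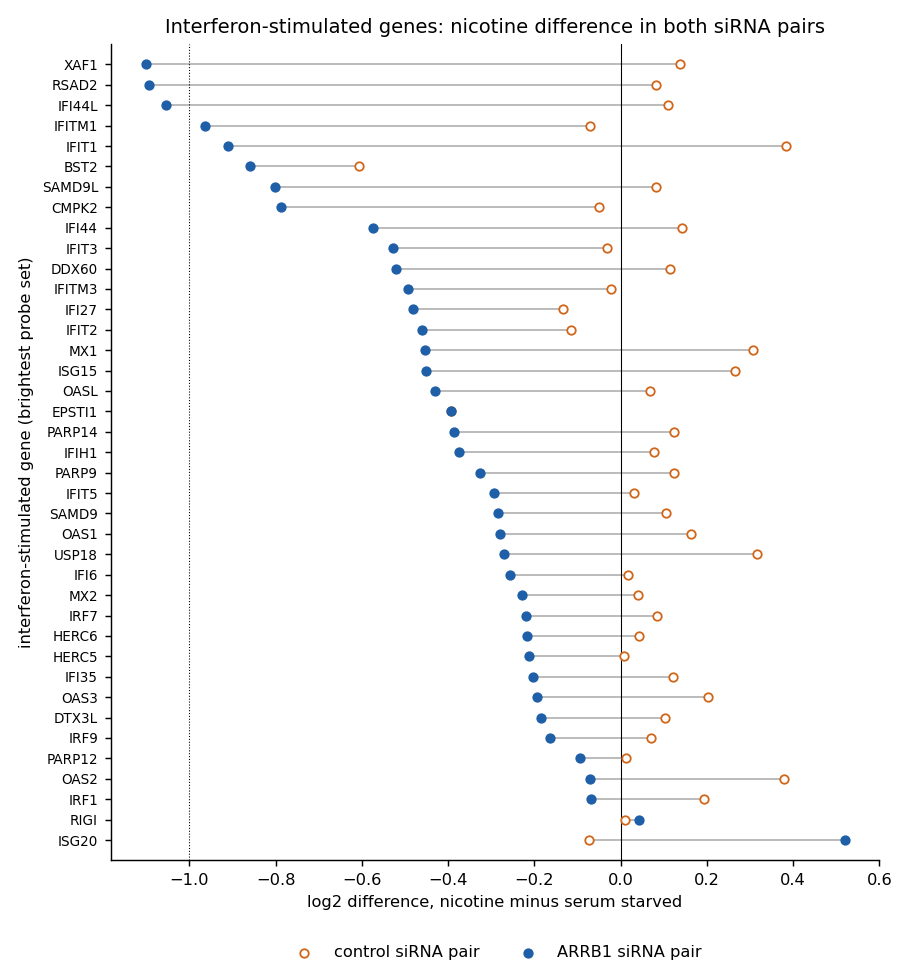
Each row is 1 of the 39 expressed interferon-stimulated genes, ordered by the log2 difference between nicotine stimulated and serum starved cells in the ARRB1 siRNA pair (filled), with the difference in the control siRNA pair (open), 1 array per condition. In the ARRB1 siRNA pair 37 of 39 lie below 0, and in the control siRNA pair 9 of 39 do.

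Most of the same genes were not lower with nicotine in control siRNA cells. There 9 of the 39 were lower, where 55.6% of all expressed genes were, and the median difference was 0.08. The difference was more negative in ARRB1 siRNA than in control siRNA cells for 36 of the 39, against 48.5% of all expressed genes. The 4 arrays had no sample in common between the pairs, but with 1 array each the difference between the pairs was not tested.

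The starved ARRB1 siRNA cells already held less of these transcripts than the starved control siRNA cells. This was so for 38 of the 39 genes, where 47.6% of all expressed genes were lower, with a median of -1.08 on the log2 scale against 0.02 over all expressed genes. Between the nicotine stimulated arrays the median was -1.53, again against 0.02. The median signal of the 39 genes was 1891 and 1899 in the control siRNA arrays, 766 in the starved and 612 in the nicotine stimulated ARRB1 siRNA array. The nicotine stimulated ARRB1 siRNA array was the lowest of the 4 for 36 of the 39 genes, and for 29.1% of all expressed genes. Whether the step between the siRNAs and the step with nicotine have a common source was not tested.

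**Figure D3:**
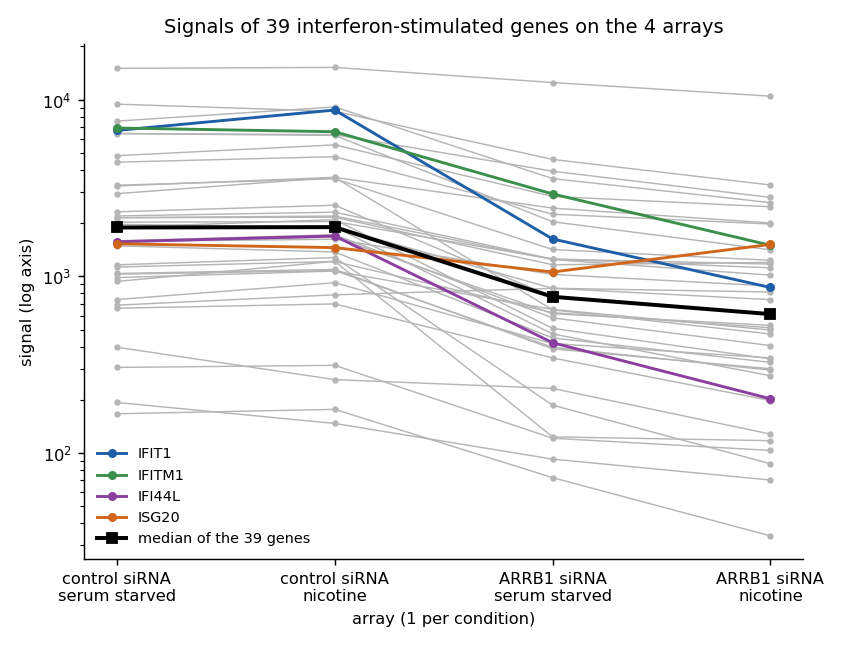
Signals of the 39 expressed interferon-stimulated genes on the 4 arrays, 1 array per condition, on a log axis; a line joins the values of 1 gene and has no meaning between arrays. The median is 1891 and 1899 in the control siRNA arrays and 766 and 612 in the ARRB1 siRNA arrays, and ISG20 is the coloured gene that is higher with nicotine.

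The other probe sets of the same genes were divided. Of the 39 genes 14 had a further expressed probe set, 16 probe sets in all, of which 9 were lower with nicotine, with a median of -0.05. IFIT2 was lower in both of its probe sets (-0.46 and -0.88), as were PARP9 (-0.33 and -0.58), OASL (-0.43 and -0.33), OAS1 (-0.28 and -0.19) and IFIT3 (-0.53 and -0.10). XAF1, which binds the caspase inhibitor XIAP, was the lowest gene by its brightest probe set, with 1162, 1278, 187 and 87.0 on the 4 arrays (-1.10). Its other probe sets stood at 0.03 and 0.07, so its nicotine difference was not repeated, while all 3 were lower in both ARRB1 siRNA arrays than in both control siRNA arrays. The dimmer probe sets of SAMD9L, SAMD9 and OAS3 were higher with nicotine, at 0.27, 0.43 and 0.69. IFITM1, IFIT1, IFI44L, RSAD2, CMPK2 and BST2 had 1 expressed probe set each.

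Single immune genes outside that list were among the lower ones, and in TNFSF10, CFI, CD274 and PML at least 1 other probe set was 1.5-fold lower. These genes are described one by one for their size or their repeat and say nothing of immune genes as a group. TNFSF10, or TRAIL, a death ligand, was lower in all 3 of its probe sets, at -0.69, -0.67 and -1.15. Its brightest read 452 and 390 after control siRNA and 226 and 140 after ARRB1 siRNA. CFI, the complement protease factor I, read 375 and 232 in its brighter probe set and 188 and 95.2 in the other (-0.69 and -0.98). CD274, the checkpoint ligand PD-L1, read 206 and 121 in the brighter and 95.1 and 43.0 in the dimmer probe set (-0.76 and -1.15). PML, the organizer of PML nuclear bodies, stood at -0.78 in its brightest and at -1.13 and -0.53 in 2 others, while the remaining 4 lay between -0.16 and 0.02. APOL1, an apolipoprotein that lyses trypanosomes, read 317, 375, 381 and 120 on the 4 arrays, so the nicotine stimulated ARRB1 siRNA array alone was low (-1.67, at -4.48 local SDs). LGALS9, the lectin galectin-9, was likewise low on that array alone, with 160, 175, 131 and 30.4 (-2.10). CXCL10, an interferon-inducible chemokine, had the lowest difference of 24 expressed cytokines and chemokines at -0.90. It was the only one past 1.5-fold, 8 of the 24 were higher, and the median was -0.08.

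Among the higher genes CEACAM5 had the largest difference against the spread, and its relative CEACAM6 was higher as well. CEACAM5, a cell adhesion glycoprotein used as a serum tumour marker, read 469 starved and 719 with nicotine after control siRNA, and 453 starved and 1807 with nicotine after ARRB1 siRNA. Its difference of 2.00, or 3.99-fold, was 6.78 local SDs. CEACAM6, its neighbour in the family and abundant in A549 cells, was higher in both probe sets. Its brighter one read 2146, 2709, 2862 and 4809 on the 4 arrays (0.75), and the other 1472, 2279, 1559 and 4797 (1.62). All 3 of these probe sets were highest in the nicotine stimulated ARRB1 siRNA array, and all 3 were also higher with nicotine in control siRNA cells, by 0.62, 0.34 and 0.63. A second, dim CEACAM5 probe set read 98.5 and 86.9 in ARRB1 siRNA cells (-0.18) and did not repeat it. The other expressed members of the family were not higher in their brightest probe sets, with CEACAM1 at -0.38, CEACAM7 at -0.34 and CEACAM19 at -0.01.

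**Figure D4:**
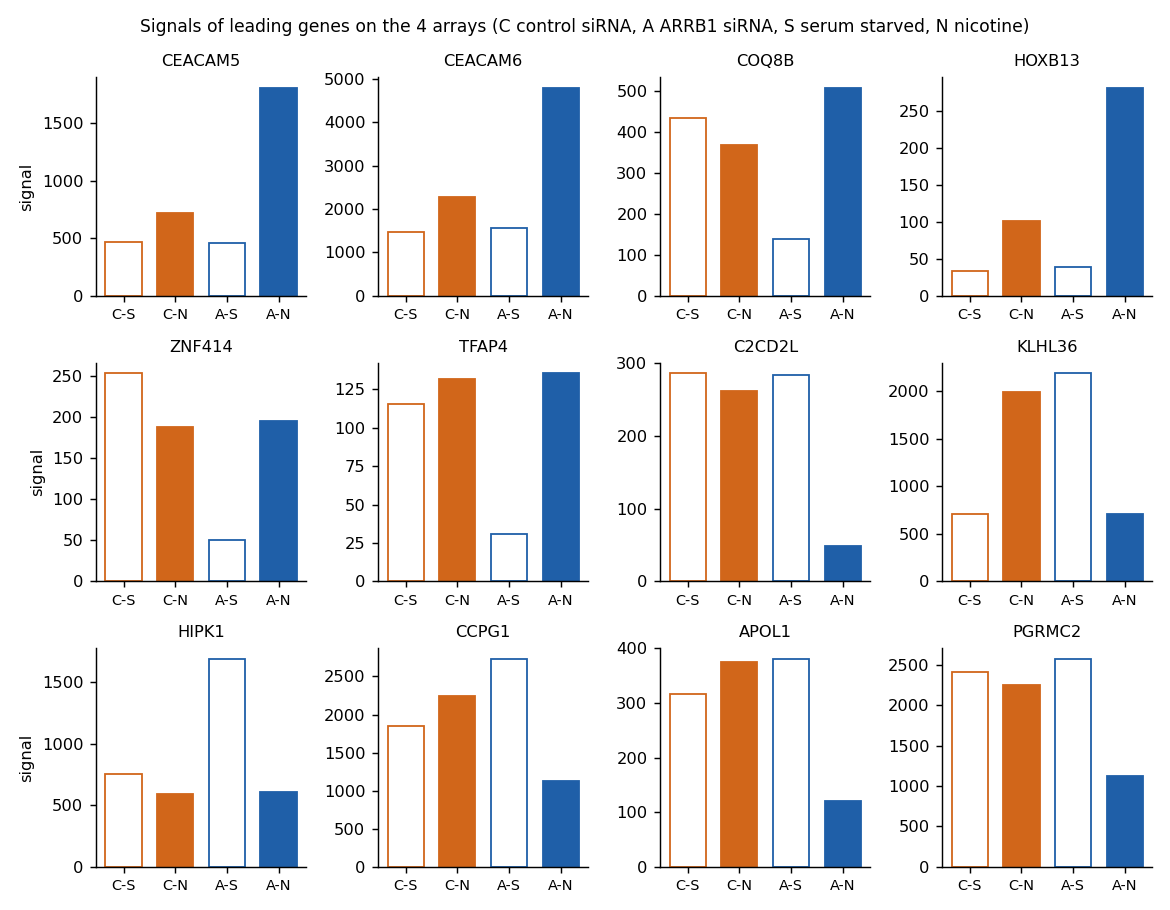
Signals of 12 leading genes on the 4 arrays (C control siRNA, A ARRB1 siRNA, S serum starved, N nicotine), 1 array per condition and no error bars, with every axis from 0. CEACAM5, CEACAM6 and HOXB13 are highest in the nicotine stimulated ARRB1 siRNA array, COQ8B, ZNF414 and TFAP4 are lowest in the starved one, and C2CD2L, CCPG1, APOL1 and PGRMC2 are lowest in the nicotine stimulated one. The panels show 1 probe set each, and in CEACAM5, KLHL36 and PGRMC2 another expressed probe set did not repeat the difference. CEACAM6 is drawn by its dimmer probe set, with a difference of 1.62, where the brighter one stood at 0.75.

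For most other higher genes it was the starved ARRB1 siRNA array that lay apart. In the 62 genes the median of the starved array against the mean of both control siRNA arrays was -0.90 and that of the nicotine stimulated array 0.37, and the starved array was the farther one in 43. These genes were chosen by the difference between those 2 ARRB1 siRNA arrays. Their starved signal lay below its array's median in 40 of the 62. The share of all expressed genes with the starved array farther was not computed. COQ8B, a kinase-like protein needed for coenzyme Q synthesis, read 435 and 367 in control siRNA cells, 138 starved and 508 with nicotine in ARRB1 siRNA cells (1.88, 5.48 local SDs). A second COQ8B probe set read 48.1 and 80.2 (0.74). ZNF414, a zinc finger protein, read 254, 188, 50.5 and 196 on the 4 arrays (1.96), and TFAP4, a helix-loop-helix transcription factor, 115, 132, 30.5 and 136 (2.15). In each of these genes the nicotine stimulated ARRB1 siRNA signal was within 1.5-fold of at least 1 control siRNA array, and the starved one was over 2-fold below the other 3.

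The same order held for CREB3L1, a membrane-bound transcription factor, with 93.0, 139, 37.5 and 158 (2.08), and for PLXNC1, a semaphorin receptor, with 86.2, 113, 26.3 and 118 (2.17). CDH6, the cadherin of fetal kidney, read 13.4 and 87.9 in ARRB1 siRNA cells (2.71). Its other probe sets stood at 0.65 and -0.91. The probe set annotated to IFNA17, a type I interferon gene, read 88.5, 119, 30.3 and 170 (2.48). Its probe set is of the kind marked for possible cross-hybridisation, and the interferon genes are near-identical copies, so which of them it read is uncertain. Among bright genes FADS2, a fatty acid desaturase, read 3823 and 6372 (0.74), and its dimmer probe set stood at 0.43. TENT4B, a poly(A) polymerase, read 885 and 1790 in 1 probe set (1.02) and 1172 and 1176 in another of the same mean signal (0.01), so it was not repeated. The first of these read 1097 and 2051 in control siRNA cells (0.90), a difference of similar size. THSD4, a fibrillin-binding matrix protein, read 1809 and 3380 (0.90), with 0.21 and 0.05 in its other probe sets.

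Among the 120 lower genes it was more often the nicotine stimulated ARRB1 siRNA array that lay apart. In the 120 genes its median against the mean of both control siRNA arrays was -0.86 and that of the starved array 0.37, and the starved array was the farther one in 35. These genes too were chosen by that difference, and their nicotine stimulated signal lay below its array's median in 71. The share over all expressed genes was not computed here either, so the count of 35 describes this set only. C2CD2L, a lipid transfer protein at contacts of the endoplasmic reticulum with the plasma membrane, read 287, 262 and 284 on the other arrays and 48.2 here (-2.56, at -6.07 local SDs). CCPG1, a receptor for autophagy of the endoplasmic reticulum, read 1853, 2248, 2734 and 1129 on the 4 arrays (-1.28, at -5.18 local SDs). PGRMC2, a haem-binding membrane protein, read 2413, 2248, 2576 and 1128 (-1.19, at -4.96 local SDs), but its other probe set, nearly as bright, read 1557 and 1515 in ARRB1 siRNA cells (-0.04) and did not repeat it. In the probe sets given for these 3 genes the low array was over 1.5-fold below each of the others. The CCPG1 probe set is also marked for possible cross-hybridisation.

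HIPK1, a nuclear kinase, had another order, with 757, 595, 1692 and 609 on the 4 arrays (-1.47), so the starved ARRB1 siRNA array was the high one. MFAP2, a microfibril protein, read 142, 104, 264 and 59.2 (-2.16). NTRK3, the receptor for neurotrophin-3, was lower in 7 of its 9 probe sets. The brightest of these read 1122 starved and 551 with nicotine (-1.03), and 3 others were at least 1.5-fold lower. BLZF1, a Golgi protein, was lower in its brighter probe sets (-1.12 and -0.61) and stood at 0.22 in the dimmest. RARRES1, a retinoid-induced gene, read 2116 and 1227 (-0.79), and MRPL19, a mitochondrial ribosomal protein, 3249 and 2097 (-0.63), and each was repeated by another probe set, although the remaining one of MRPL19 stood at 0.32.

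Other probe sets seldom repeated a 2-fold difference. Of the 62 higher genes 11 had another expressed probe set, 13 in all, with 6 in the same direction and 2 of them at least 1.5-fold (in COQ8B and CDH6). Of the 120 lower genes 31 had 47 others, with 27 in the same direction and 4 at least 1.5-fold (in NTRK3 and BLZF1). Only KLF6 and PPIL2 had at least 2 probe sets 2-fold higher and only ARID1B at least 2 that were 2-fold lower, among 6065 genes with several expressed probe sets. These 3 were named after their values were seen.

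In control siRNA cells most of the genes past 2-fold lay within 1.5-fold, but a smaller share than the 95.3% of all expressed genes. Of the 62 higher genes 39 lay within 1.5-fold there, 5 were at least 2-fold higher (8.06%) and 4 at least 2-fold lower (6.45%). Of the 120 lower genes 92 lay within 1.5-fold, 3 were at least 2-fold lower (2.5%) and 5 at least 2-fold higher (4.17%). Of all expressed genes 0.719% were at least 2-fold higher in the control siRNA pair and 0.335% at least 2-fold lower. The genes past 2-fold are mostly dim, with median signals of 94.9 and 113 in the higher and lower set. Shares among genes of the same signal in the control siRNA pair were not computed. The genes higher in both pairs were HOXB13, TAGAP, BPIFA3, ZBED6 and IKZF1. HOXB13, a homeobox factor of the prostate and hindgut, read 33.1 and 102 after control siRNA and 38.6 and 282 after ARRB1 siRNA, dim on the starved arrays and higher on both nicotine stimulated ones. TAGAP, a GTPase-activating protein of T cells, read 33.6 and 150, then 42.4 and 136. HOXB13 and TAGAP lay below the expressed level on both starved arrays and passed the filter only through the nicotine stimulated ones. BPIFA3 and IKZF1 lay below that level on 1 starved array each. The genes lower in both were HOXC5, TDRD10 and LINC01359. These lay below the expressed level on both nicotine stimulated arrays and passed the filter only through the starved ones. HOXC5, of the homeobox C cluster, read 181 and 57.7, then 263 and 61.8, so both starved arrays lay above both nicotine stimulated ones. Of these 8 genes IKZF1 alone had another expressed probe set, and BPIFA3, ZBED6, IKZF1, TDRD10 and LINC01359 were named after their values were seen.

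Genes of the pathway under study differed little. KITLG, which encodes stem cell factor, read 1333 starved and 1349 with nicotine after ARRB1 siRNA (0.02), and 1847 and 1636 after control siRNA. This was its only expressed probe set. The KITLG probe set that the paper lists lay far below the expressed level. It read 3.45 and 2.19 after ARRB1 siRNA (-0.65), and 1.56 and 14.2 after control siRNA (3.19), where the local SD in the ARRB1 siRNA pair was 1.75. E2F1, a transcription factor that drives entry into S phase, read 545 and 709 in its brighter probe set (0.38) and 532 and 628 in the other (0.24), where the brighter one was 1.03 higher with nicotine in control siRNA cells and the other 0.10. Of 43 expressed cell cycle genes and E2F targets 23 were higher, the median was 0.04 and none passed 2-fold. The retinoblastoma relatives RBL2 and RBL1 were among the lowest at -0.59 and -0.46, but the dim second probe set of each was higher, at 0.66 and 0.22. E2F2 was the highest at 0.51. Of 27 ERK feedback and immediate early genes none passed 1.5-fold, and EGR1 was the highest at 0.48.

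Of 16 expressed nicotinic receptor, arrestin and related genes 7 were higher, with a median of -0.04. CHRNA10, a receptor subunit, read 80.0 and 79.2 after control siRNA and 119 and 48.2 after ARRB1 siRNA (-1.30), the 1 member past 1.5-fold, at a signal where the local SD was 0.57. The probe set of CHRNA7, which it shares with CHRFAM7A, read 118 and 183 (0.63). The ligands and receptors of the EGF family with the Src kinases had a median of -0.19 in 17 genes, of which 3 were higher, and -0.11 in the control siRNA pair. YES1, a Src family kinase, read 2937 and 1931 (-0.60), with 1278 and 1210 in its other probe set (-0.08). Over all 34 expressed probe sets of those genes 17 were lower, so that the shift was not repeated across probe sets.

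Among the stem cell genes HES1, a Notch target, read 600 and 339 (-0.82), with -0.14 in its other probe set, and NOTCH1 read 274 and 391 (0.51), while the list of 16 had a median of -0.04. In the p53 target list, whose median was 0.00 over 20 genes, RRM2B, a ribonucleotide reductase subunit, read 2646 and 1572 (-0.75). ZMAT3, an RNA-binding protein, read 492 and 965 (0.97), but of its other probe sets 3 were lower (-0.10, -0.40 and -0.73) and 1 was higher (0.38). CYP1B1, an oxidase induced through the aryl hydrocarbon receptor, read 4474 and 2823 in its brightest probe set (-0.66), while both others, also bright, stood at 0.38. TRIB3, a stress-induced pseudokinase, was the lowest of 26 unfolded protein response genes at -0.60, with -0.23 in its other probe set. The noncoding RNAs GAS5 and DANCR, which host small nucleolar RNAs, differed in opposite directions, at -0.87 and 0.60.

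The alveolar list was spread widely, with CEACAM5 at the top. LAMP3, a lysosomal protein of type II alveolar cells that interferon also induces, read 510 and 483 after control siRNA and 141 and 71.2 after ARRB1 siRNA (-0.99). SFTPC, surfactant protein C, read 174 and 54.6 (-1.67) and MUC5AC, a gel-forming mucin, 947 and 559 (-0.76), where the other probe sets of MUC5AC ranged from -0.41 to 0.27. The list's median was -0.13 in 13 genes.

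The 23 expressed cytosolic ribosomal protein genes had a median of 0.29, with 21 higher, and the 6 expressed keratins were all higher with a median of 0.22. These are bright genes, and the differences had a trend with signal in both pairs. The 300 brightest genes had a median of 0.18 in the ARRB1 siRNA pair and 0.15 in the control siRNA pair, and 300 genes at a signal near 100 had -0.11 in the ARRB1 siRNA pair. Relative to genes of the same signal the ribosomal protein genes stood at 0.07 and the NRF2 and xenobiotic response genes, whose median was 0.16, at 0.01. The interferon-stimulated genes kept -0.36 on this measure. The median of the other lists with at least 6 expressed genes lay between -0.17 and 0.12 relative to genes of the same signal.

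**Figure D5:**
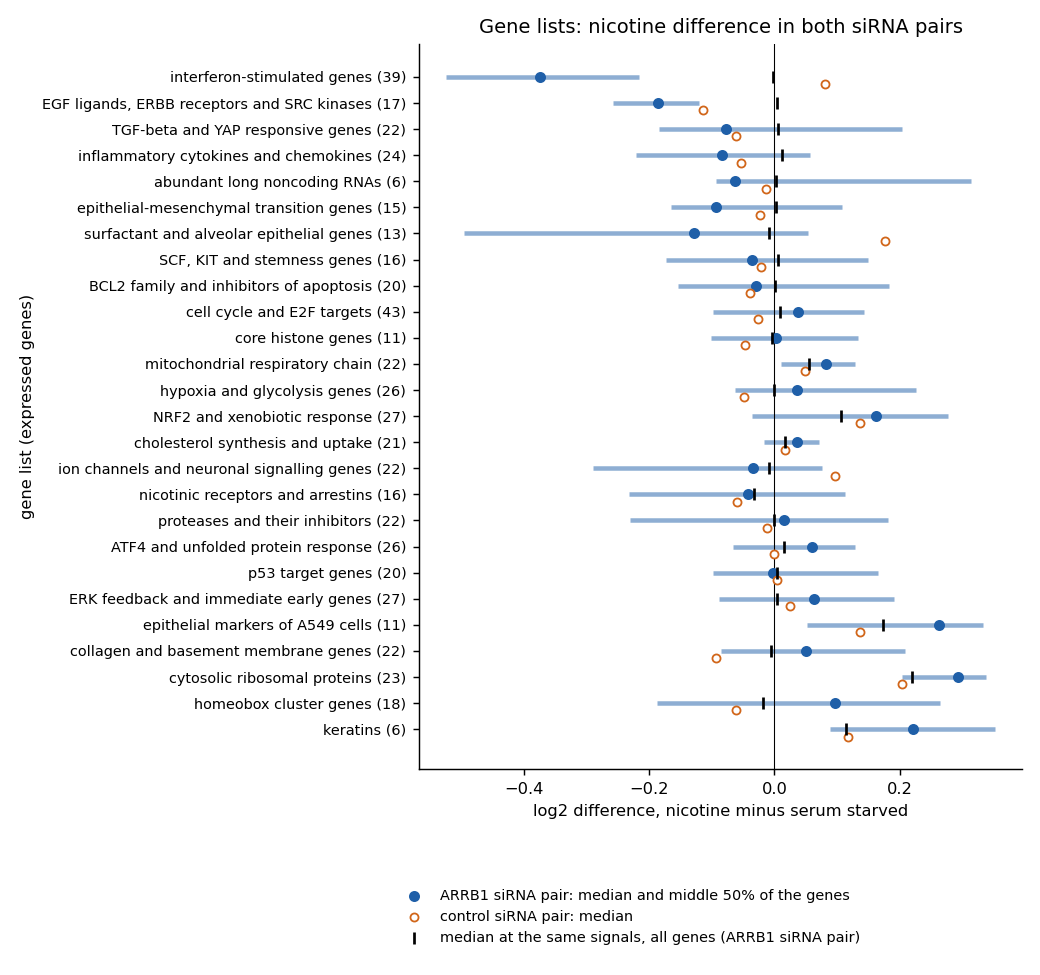
Median log2 difference between nicotine stimulated and serum starved cells for each gene list with at least 6 expressed genes, in the ARRB1 siRNA pair (filled, bar over the middle 50% of the genes) and the control siRNA pair (open); black ticks give the median of all genes at the same signals in the ARRB1 siRNA pair. The interferon-stimulated genes lie at -0.38, away from their tick, while the ribosomal protein genes at 0.29 lie near theirs.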

How the data were processed

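RNA of 4 A549 cultures was measured on 4 Affymetrix U133 Plus 2.0 arrays, 1 per condition. The authors deposited 1 intensity per probe set and array on a linear scale, made with MAS5 in GCOS 1.4 according to the submitters' processing notes. The mean of each array without the highest and lowest 2% was 500.1, so the arrays had been scaled to a common target, and array medians were 68.6 to 73.3. This scaling assumes similar total RNA in all cultures. The deposited values were taken to log2 without further normalization, background correction or floor.

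Of 54675 probe sets 62 control probe sets were left out. The platform annotation gave 1 gene symbol to 41091, several to 1801 and none to 11721 of the rest, and probe sets with several symbols were not used for genes. Expressed genes were those at or above the 50th percentile of mean log2 signal. Promoters were taken from RefSeq on GRCh38.p14. The analysis used Python 3.11.15, numpy 2.4.6, pandas 2.3.3 and matplotlib 3.10.9, and was tested on simulated data.

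Genes were named by rule: the 15 highest and 15 lowest past 2-fold and the 10 highest and 10 lowest over their local SD, both without an expressed probe set in the opposite direction, genes repeated by another probe set at 1.5-fold, up to 4 members of each of 29 gene lists, and ARRB1, KITLG, E2F1 and CHRNA7. Members of the interferon list are described beyond those 4. Lists and members were chosen with earlier results of these data known. Alternatives were 2 other scalings, signal floors, other limits and filters, other rules for a gene's probe set and other measures of the local spread. Whether RNA of several cultures was pooled is not given in the sources used here.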

Additional observations from a re-analysis of the deposited data

Results flagged for a closer look

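There were 9 genes at least 2-fold different with nicotine in opposite directions in the 2 siRNA pairs, of 17 past 2-fold in both. The values below are the log2 difference in ARRB1 siRNA cells minus that in control siRNA cells. With 1 array per condition these differences were not tested. In AGRP (3.57), KHDRBS3 (3.84), LINC01503 (2.57) and USP5 (2.18) the ARRB1 siRNA pair was higher with nicotine and the control siRNA pair lower. The nicotine stimulated control siRNA signals of AGRP and KHDRBS3 were 17.2 and 22.9, below the expressed level. LINC01503, ADAM33, IRF4, KSR2 and PRODHLP also lay below that level on at least 1 array. Only KLHL36 and USP5 lay above it on every array. In ADAM33 (-2.27), IRF4 (-2.10), KLHL36 (-3.13), KSR2 (-2.72) and PRODHLP (-2.51) the ARRB1 siRNA pair was lower and the control siRNA pair higher.

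KLHL36, an adaptor of cullin ubiquitin ligases, was the brightest of the 9. It read 708 starved and 1997 with nicotine in control siRNA cells, and 2193 starved and 707 with nicotine in ARRB1 siRNA cells, so the arrays fell into 2 bright and 2 dim ones. Its other expressed probe sets stood at -0.07 and -0.12 in ARRB1 siRNA cells. USP5, a deubiquitinase, read 388 and 185, then 162 and 350. KSR2, a scaffold of the ERK cascade, read 87.6 and 183, then 167 and 53.2.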

How the results depend on the processing

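The counts of genes past 2-fold moved with the choices that touch dim genes. With signals below the median set to it, 33 genes were higher and 71 lower; with a limit of 1.5-fold 271 and 588, and of 3-fold 16 and 22; with the filter at the 25th percentile 618 and 911, at the 75th 4 and 18, and with no filter 1445 and 1694. Centring the arrays gave 84 and 92 and quantile normalization 78 and 103; the other rules gave 58 to 66 higher and 92 to 120 lower genes. The interferon-stimulated genes had a median between -0.28 and -0.38 under the alternatives run; it was -0.28, with 34 of 39 lower, when the median over a gene's probe sets was used. XAF1 reversed to 0.035 with that median. Of the named gene differences 1408 of 1502, over 224 genes, moved by less than their local SD, 93 moved by more and 1 reversed. Several alternatives could not change many of these values, such as the median over probe sets for a gene with 1 expressed probe set. The same arrays were also used each time, so this count is no measure of how repeatable the differences are. No paired analysis was possible because each condition has 1 array, and for the same reason no array could be left out. On arrays the signal over background sets what a difference can show, and most 2-fold differences lay at low signal.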
